A study of Mus musculus with 6 samples.

Results

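Gas5 and 5 further host genes of small nucleolar RNAs (Snhg5, Snhg11, Snhg15, Snhg16 and Snhg17) were followed in mouse granulocytes. Caffeine, a drug known to block nonsense-mediated decay (NMD), was present or absent during a block of transcription. The genes were found by symbol: each probe set whose annotation names exactly 1 of these symbols was used, and probe sets of a gene were kept apart. This gave 12 probe sets of 34760 on the array, standing for 6 of the 19937 genes with a probe set of their own. Gas5 had 4, Snhg17 had 3, Snhg11 had 2, and Snhg5, Snhg15 and Snhg16 had 1 each. No filter on dim signal was applied, so all 12 were tested.

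The RNA came from granulocytes of C57BL/6J mice on 6 Affymetrix Mouse Gene 1.0 ST arrays. The caffeine+ group (3 arrays) is cells that had 15 mM caffeine for 4 hours, were washed, and then spent another 4 hours with caffeine and 2 µg/ml actinomycin D, a blocker of transcription. The caffeine- group (3 arrays) had actinomycin D alone in that second step. Per the treatment protocol both groups were exposed to caffeine in the first step, although the caffeine- samples are labelled as untreated. The comparison therefore asks how much of an RNA was left when caffeine stayed during the transcription block. Animal age and sex, the way the granulocytes were purified, and whether replicates were separate animals or cultures are not given in the labels. The p-values therefore cover only the variation among these 6 arrays, which could be technical.

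A non-coding snoRNA host gene is transcribed and spliced. The snoRNAs, which guide the chemical modification of ribosomal RNA, are cut out of its introns. The joined exons hold no long reading frame. In many host genes transcription starts in a run of pyrimidines, as it does in ribosomal protein genes. Ribosomes engage the spliced exons, stop early, and the RNA is then destroyed by NMD, in which the kinase SMG1 phosphorylates the helicase UPF1. Caffeine inhibits SMG1 and related kinases, along with the phosphodiesterases that break down cAMP. Gas5, first isolated from growth-arrested mouse fibroblasts, is the textbook case of a host RNA held low by NMD.

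The start regions are shown because the pyrimidine tract is the sequence feature that host genes are known for. RefSeq (GRCm38.p6) gave a promoter entry for all 6 genes, with 8 start sites in all. Below are 60 bases for each gene, 30 before and 30 from the annotated start, in the direction of transcription. Capitals mark a C followed by at least 4 pyrimidines (C or T) that begins within 10 bases of the start. For Gas5 the downstream of its 2 annotated starts is shown, and for Snhg17 the first of its 2 listed starts.
Gas5 (chr1:161035136-161035195, + strand): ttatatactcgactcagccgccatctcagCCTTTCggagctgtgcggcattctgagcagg
Snhg5 (chr9:88522868-88522927, - strand): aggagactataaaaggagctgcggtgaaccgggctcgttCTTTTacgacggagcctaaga
Snhg16 (chr11:116671630-116671689, + strand): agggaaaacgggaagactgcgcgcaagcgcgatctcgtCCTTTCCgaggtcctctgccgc
Snhg11 (chr2:158375683-158375742, + strand): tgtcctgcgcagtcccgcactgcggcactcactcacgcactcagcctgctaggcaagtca
Snhg15 (chr11:6528731-6528790, - strand): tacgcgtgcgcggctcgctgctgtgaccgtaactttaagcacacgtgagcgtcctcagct
Snhg17 (chr2:158361493-158361552, - strand): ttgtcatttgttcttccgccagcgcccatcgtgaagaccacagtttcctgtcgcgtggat

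The tract was found at 3 of the 8 starts, those of Gas5, Snhg5 and Snhg16 printed above. The same rule is met by 30.7% of all 32851 promoter entries. The window was set after the sequences had been seen: with a window of 5 bases, 1 of the 8 starts (Gas5) met it, against 18.3% of all entries. In the whole 300-base entries, searched on both strands, CACGTG, the E-box bound by MYC, was present for Snhg15 and in 7.15% of all entries. TATAA lay 10 to 45 bases before the start of Snhg5, on the coding strand, and in 4.16% of all entries. These matches describe letters only and say nothing of binding.

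Groups were compared with limma, and a probe set passed at a Benjamini-Hochberg adjusted p under 0.05 over all 34760 probe sets. Levels are log2 values on the deposited scale. Each difference is the caffeine+ mean minus the caffeine- mean on that scale, given ± its standard error from limma, with 3 arrays a group. In limma that error is drawn toward a trend over all probe sets, so it can be smaller or larger than the spread of the arrays alone gives. For differences between the responses of paired probe sets, ± is the plain standard error of the per-array differences. A probe set said to rise read higher in caffeine+ than in caffeine- cells. A gain over time is not meant, since all arrays were taken after the second step. Markers of granulocytes were bright, and they moved with the groups. Of 15 measured granulocyte markers 8, among them Elane and Ngp, were brighter than 90% of all probe sets, and all 15 were lower in caffeine+ cells. Their mean log2 level was 9.50 to 9.55 on caffeine+ arrays and 10.07 to 10.23 on caffeine- arrays. Of eosinophil, basophil and mast cell markers 3 of 6 were also brighter than 90% of all probe sets. So were 2 of 7 monocyte and macrophage markers, and no marker of the remaining cell types below. In bulk RNA fewer cells of a type and less RNA per cell cannot be told apart. Monocyte and macrophage markers (1 of 7 higher, 4 lower) had mean levels of 7.55 to 7.60 on caffeine+ arrays and 8.09 to 8.27 on caffeine- arrays, and dendritic cell markers (4 of 6 lower) had 7.41 to 7.47 on caffeine+ arrays and 7.84 to 7.92 on caffeine- arrays. Eosinophil, basophil and mast cell markers (3 of 6 lower) had 8.17 to 8.24 on caffeine+ arrays and 8.69 to 8.92 on caffeine- arrays. Of T and NK cell markers 0 of 7 passed (limma, and 0 at an unadjusted p under 0.05), and 1 of 4 B cell, 1 of 2 erythroid and 1 of 3 megakaryocyte markers were lower. The part of these shifts in the host gene results was not tested. Arrays of a group correlated at 0.986 to 0.992 across probe sets, and arrays of different groups at 0.959 to 0.965.

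Of the 12 probe sets, 5 were higher in the caffeine+ cells and none was lower (limma). These were 3 of the 4 Gas5 probe sets, the Snhg5 probe set and the Snhg16 probe set. On the whole array 13.9% of probe sets were higher and 16.2% lower by the same rule. In the same 5 probe sets every caffeine+ array lay above every caffeine- array, which was so for 18.8% of all probe sets. The 7 others had overlapping groups, and none of them reached an unadjusted p of 0.05.

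**Figure D1:**
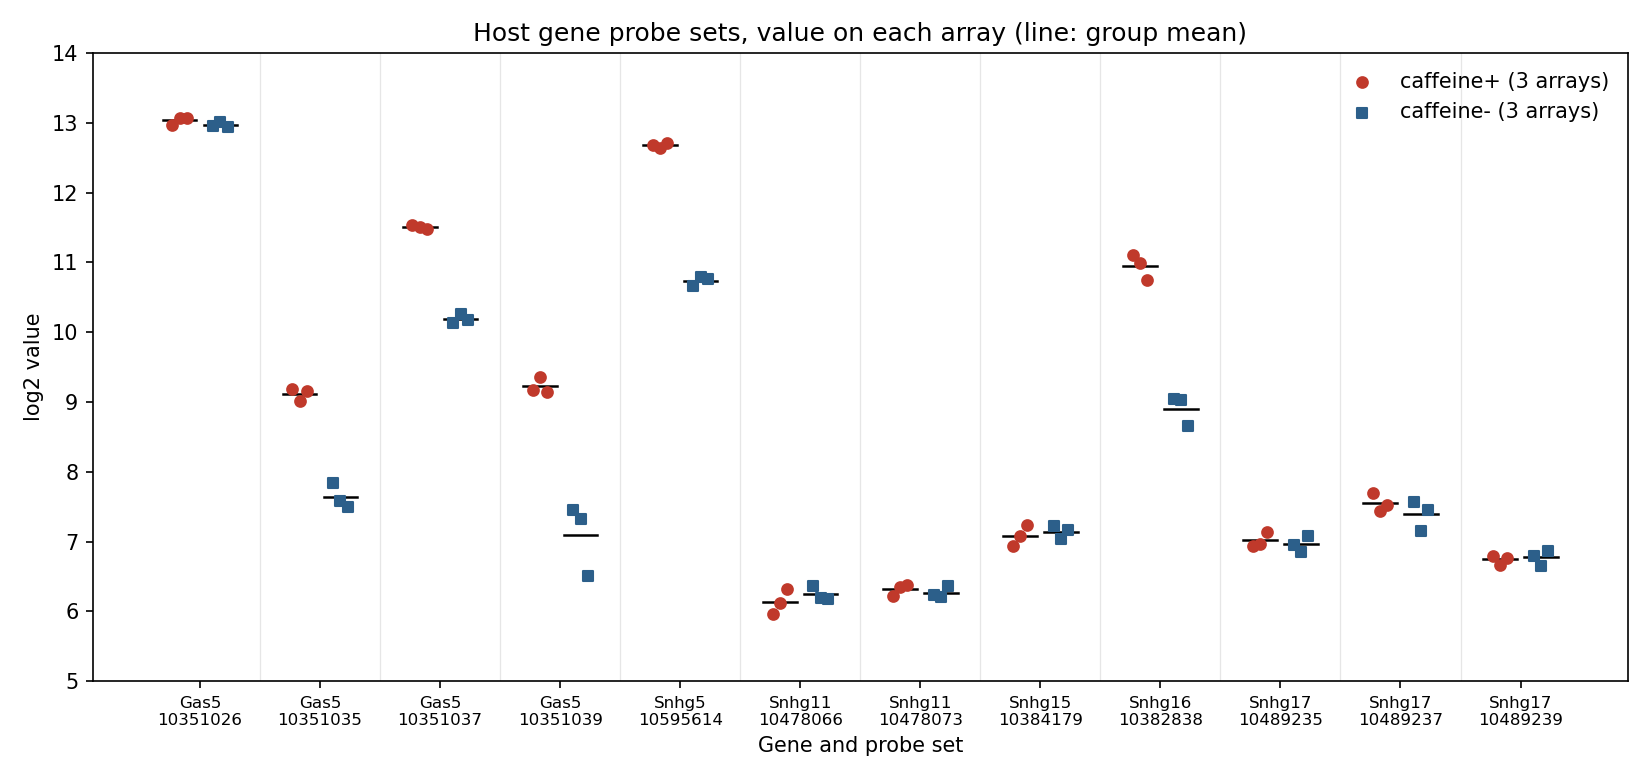
Log2 value (y axis) of each of the 12 host gene probe sets (x axis) on the 3 caffeine+ arrays (circles) and the 3 caffeine- arrays (squares), with a line at each group mean. The groups are apart in Gas5 10351035, 10351037 and 10351039, Snhg5 and Snhg16, and overlap in the 7 others.

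Gas5 RNA was higher in the caffeine+ cells by 3 of its 4 probe sets, by 2.5-fold to 4.37-fold, and did not pass the test by the fourth. Probe set 10351037 read 11.54, 11.51 and 11.48 on the caffeine+ arrays, against 10.13, 10.27 and 10.18 on the caffeine- arrays. The groups were far apart and each was tight, and the difference was 1.32 ± 0.05 (2.5-fold, limma adjusted p = 9.1e-06). Probe set 10351035 read 9.18, 9.01 and 9.16 on the caffeine+ arrays, against 7.84, 7.58 and 7.50 on the caffeine- arrays. Again no caffeine- array came near the lowest caffeine+ array, and the difference was 1.48 ± 0.11 (2.78-fold, limma adjusted p = 5.3e-05).

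Probe set 10351039 gave the highest Gas5 difference and the widest spread. It read 9.17, 9.36 and 9.15 on the caffeine+ arrays, against 7.45, 7.33 and 6.51 on the caffeine- arrays. The third caffeine- array stood below the other two, and the standard deviation was 0.11 in caffeine+ cells and 0.51 in caffeine- cells. The difference was 2.13 ± 0.23 (4.37-fold, 95% interval 3.01 to 6.36, limma adjusted p = 0.00034). Leaving out any 1 array kept it between 1.84 and 2.31.

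The fourth Gas5 probe set, 10351026, is the brightest and did not pass the test. It read 12.97, 13.07 and 13.06 on the caffeine+ arrays, against 12.96, 13.00 and 12.93 on the caffeine- arrays. The groups overlap, since the first caffeine+ array lies below the second caffeine- array. The difference was 0.07 ± 0.04, with a 95% interval from -0.03 to 0.17 (limma adjusted p = 0.29), so a rise of more than 1.12-fold lies outside the interval for this probe set. After quantile normalization the difference was 0.14 and passed (limma adjusted p = 0.036). All 4 probe sets are annotated to the same RefSeq transcript of Gas5, and 10351026 also to 3 cDNA records.

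The 4 Gas5 probe sets did not respond alike. A fit over all 954 genes with several probe sets (limma diffSplice) found unequal responses within Gas5 (adjusted p = 1.1e-06), as it did in 19.2% of those genes. By probe set, the difference of 10351026 departed from that of the other Gas5 probe sets by -1.57 (adjusted p = 7.2e-07), and that of 10351039 by 1.17 (adjusted p = 2.7e-05). By this fit 14.5% of the 2657 probe sets tested departed from the others of their gene. Because diffSplice treats probe sets as independent measurements, the per-array difference of each probe set from the mean of its companions was also fitted with limma, a choice made after seeing the data. It gave the same 2 Gas5 probe sets (adjusted p = 0.00033 and 0.012, with 13.2% of probe sets called), and 10351035 and 10351037 passed in neither fit. Both fits set 10351039 against companions that include 10351026. Against 10351035 and 10351037 singly, the response of 10351039 was higher by 0.65 ± 0.26 and 0.81 ± 0.30. In the exact permutation test of single pairs, 3 arrays against 3 cannot give p below 0.10, so no pair could pass. Of the 12 pairs compared, 11 reached that smallest p (adjusted p = 0.11 over the 12 pairs), and the pair of 10351035 and 10351037 did not (a difference between responses of 0.16 ± 0.14, exact p = 0.40).

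Signal strength differed between these probe sets and is given here as a measurement. Probe set 10351026 is brighter than 99.7% of the table, whose highest value on any array is 13.98. Among the 218 probe sets whose mean log2 value lay within 0.5 of its own, a window set after the data were seen, 5.96% were higher in caffeine+ cells and 34.4% lower, and the highest difference was 0.79. Among the 1926 probe sets with a mean between 10 and 12, 30.8% were higher and 37.3% lower, and 101 had a difference of at least 2-fold upward. The part of brightness in the Gas5 result was not tested.

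**Figure D2:**
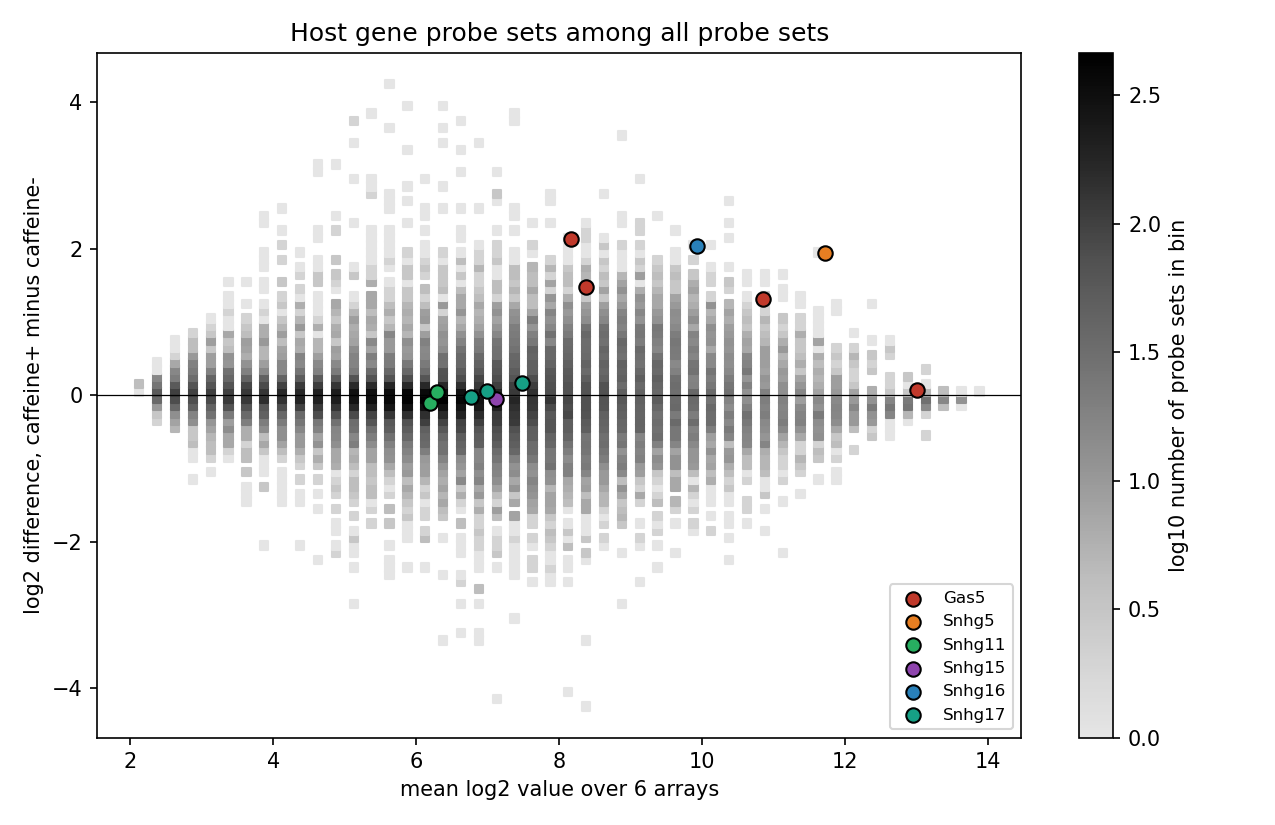
Log2 difference, caffeine+ minus caffeine- (y axis), against the mean log2 value over 6 arrays (x axis). Grey squares are bins of all 34760 probe sets, darker where more fall, and coloured points are the 12 host gene probe sets. The Snhg5 point at 1.94 stands above the grey bins near it, and Gas5 10351026 sits in the narrow bright end.

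Snhg5, known as the host of the U50 snoRNA, was 3.85-fold higher in the caffeine+ cells. It read 12.69, 12.65 and 12.72 on the caffeine+ arrays, against 10.67, 10.79 and 10.76 on the caffeine- arrays. The spread within either group was small beside the gap, and the difference was 1.94 ± 0.05 (95% interval of the fold 3.56 to 4.16, limma adjusted p = 8.1e-06). Of the 1018 probe sets with a mean log2 value of at least 11, none had a larger difference. The next highest, at 1.66, was Eif4a2, a translation initiation gene that itself holds snoRNA genes. This comparison was chosen after the values had been seen.

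Snhg16, host of the Snord1 family, was 4.13-fold higher. It read 11.11, 10.99 and 10.75 on the caffeine+ arrays, against 9.04, 9.02 and 8.65 on the caffeine- arrays. The lowest caffeine+ array was above the highest caffeine- array by a wide margin, and the difference was 2.05 ± 0.13 (95% interval of the fold 3.34 to 5.11, limma adjusted p = 3.5e-05). Without any 1 array it stayed between 1.92 and 2.15.

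Snhg17 did not pass the test in any of its 3 probe sets. Its brightest, 10489237, read 7.69, 7.44 and 7.53 on the caffeine+ arrays, against 7.56, 7.15 and 7.46 on the caffeine- arrays. The groups overlap, and the difference was 0.16 ± 0.13 (95% interval -0.13 to 0.46, limma adjusted p = 0.43). Probe sets 10489235 and 10489239 differed by 0.06 ± 0.10 and -0.03 ± 0.09 (limma adjusted p = 0.75 and 0.89). All arrays of these 2 lay between 6.65 and 7.14.

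Snhg11, which in mouse brain is known as a neuronal transcript, did not pass in either probe set. Probe set 10478066 read 5.96, 6.12 and 6.32 on the caffeine+ arrays, against 6.36, 6.19 and 6.17 on the caffeine- arrays, a difference of -0.11 ± 0.12 (limma adjusted p = 0.59). Probe set 10478073 differed by 0.05 ± 0.10 (limma adjusted p = 0.78), with all 6 arrays between 6.21 and 6.38. The probe sets of Snhg11 and of Snhg17 did not depart from each other within their gene (diffSplice adjusted p = 0.49 and 0.66).

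Snhg15, whose RNA is known to be short-lived in human cells, read 6.94, 7.08 and 7.23 on the caffeine+ arrays, against 7.22, 7.03 and 7.17 on the caffeine- arrays. The groups overlap fully, and the difference was -0.06 ± 0.11 (95% interval -0.30 to 0.19, limma adjusted p = 0.77). For the 7 probe sets that did not pass, the upper 95% bound of the fold ranged from 1.12 to 1.38, so the 95% intervals do not reach the 2.5-fold to 4.37-fold of the 5 that rose.

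The responses of the hosts are set side by side here as a description, since the pairs were chosen with earlier results known: the 2 hosts with a single probe set that rose, against the 3 hosts that did not pass. The response of Snhg5 exceeded those of the brightest probe sets of Snhg11, Snhg15 and Snhg17 by 1.89 ± 0.07, 2.00 ± 0.12 and 1.78 ± 0.17, and that of Snhg16 exceeded them by 2.00 ± 0.23, 2.10 ± 0.24 and 1.88 ± 0.22. Gas5 is not among these pairs, and its brightest probe set differed by 0.07. The 2 kinds of host also differ in annotation and in signal. Of the 7 probe sets tied to a RefSeq transcript 5 rose, and of the 5 tied to cDNA clones only (Snhg15, 3 of Snhg17, 1 of Snhg11) none did. The probe sets of Snhg11, Snhg15 and Snhg17 were brighter than 41.6% to 68.0% of all probe sets, and the 5 that rose than 77.5% to 98.5%. Detection calls were not used here, so a dim value is not read as absence, and the part of brightness and probe placement in these results was not tested.

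**Figure D3:**
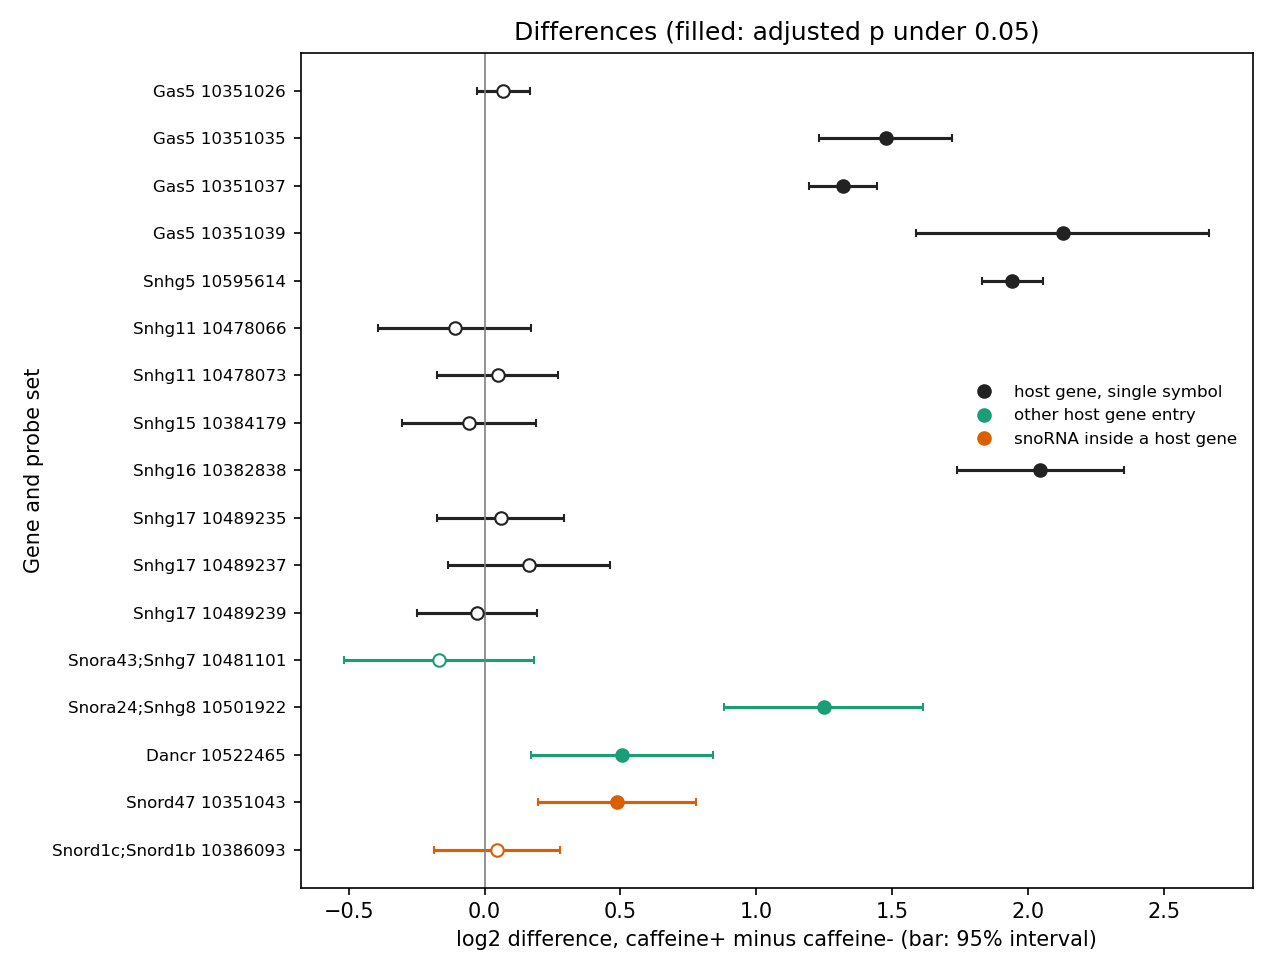
Log2 difference, caffeine+ minus caffeine-, with its 95% interval (x axis) for the 12 host gene probe sets (black), 3 entries of other host genes (green) and 2 of snoRNAs inside Gas5 and Snhg16 (orange). Filled points passed the test (limma adjusted p under 0.05). The 5 filled black points lie between 1.32 and 2.13, and the open points lie between -0.17 and 0.16.

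The reference gene table places 18 snoRNA genes within the spans of the 6 hosts: 8 in Gas5, 3 in Snhg16, 2 each in Snhg5, Snhg11 and Snhg17, and 1 in Snhg15. Only 2 probe sets name any of them, and whether such a probe set reads the snoRNA or the host RNA around it is not known here. Snord47, a box C/D snoRNA inside Gas5, read 9.82, 9.72 and 9.82 on the caffeine+ arrays, against 9.26, 9.58 and 9.06 on the caffeine- arrays. The groups do not overlap, and it was 1.4-fold higher (0.49 ± 0.12, limma adjusted p = 0.021), less than the 3 Gas5 probe sets that rose, a difference that was not tested. Its call was lost without caffeine+ array 1 (limma adjusted p = 0.067), caffeine+ array 3 (0.065) or caffeine- array 1 (0.058), with a range of 0.00091 to 0.067 over 16 alternatives. The probe set shared by Snord1b and Snord1c, both inside Snhg16, differed by 0.05 ± 0.10 (limma adjusted p = 0.81), while Snhg16 itself rose. It is dimmer than most of the table, with all arrays between 4.61 and 4.79. The span of Gas5 overlaps that of Zbtb37 in the reference table, which gives no strand, and where each Gas5 probe set lies is not known here, so signal in the overlap is uncertain in its gene.

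Of 15 other non-coding host genes on a list, 1 is named alone on the array. Dancr, an RNA known to restrain differentiation of progenitor cells, was 1.42-fold higher (0.51 ± 0.14, limma adjusted p = 0.032), but its call was lost without caffeine+ array 1 (limma adjusted p = 0.077), 2 (0.052) or 3 (0.10), without caffeine- array 2 (0.073) or 3 (0.065), and with the replicate number as a block (0.06). Over 16 alternatives its adjusted p ran from 0.0035 to 0.10. A probe set shared by Snhg8 and its snoRNA Snora24 was 2.38-fold higher (1.25 ± 0.16, limma adjusted p = 0.00069), with caffeine+ values of 8.09, 7.74 and 7.58 against caffeine- values of 6.49, 6.40 and 6.78. One shared by Snhg7 and Snora43 differed by -0.17 ± 0.15 (limma adjusted p = 0.50). For 8 of the 15 hosts at least 1 probe set names a snoRNA within the span, a search made after seeing the data. There were 16 such probe sets, the shared ones of Snhg7 and Snhg8 included. Of the 16, 6 were higher and none lower (limma), against 13.9% higher and 16.2% lower on the whole array. The 7 that name Snord116 copies, inside Snhg14, did not pass. Snord22, inside Snhg1, was 3.21-fold higher (1.68 ± 0.15, limma adjusted p = 0.00014). Snora44 rose 2.86-fold (1.52 ± 0.08) while Snora16a, inside the same host Snhg12, differed by -0.02 ± 0.11 (limma adjusted p = 1.7e-05 and 0.93).

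The machinery that acts on host RNAs was described using 1 probe set per gene, the brightest one. On that footing 14.5% of the 19937 genes were higher and 18.8% lower (limma), with a median difference of -0.04. The share called varied with signal: of all probe sets, 12% were higher at mean log2 values of 6 to 8 and 34.9% at 8 to 10. The median gene was brighter than 75% of all probe sets among NMD factors and 90% among exon junction genes. It was brighter than 69.9% among snoRNA genes and 45.7% among the long non-coding RNAs below. The part of brightness in the list counts was not tested. Of 7 measured NMD factors 5 were higher and none lower, with a median of 0.78. Smg1, which encodes the UPF1 kinase, was 2.35-fold higher (1.24 ± 0.05, limma adjusted p = 9.7e-06) and Upf2, a partner of UPF1, 2.03-fold. Smg6, which encodes the nuclease that cuts the target RNA, was 1.51-fold higher, and Smg5, whose product helps to dephosphorylate UPF1, 2.02-fold. Of 9 genes of the exon junction and cap-binding complexes 5 were higher and 1 lower, with a median of 0.20. These included Rnps1 (2.00-fold), Casc3 (1.89-fold), the cap-binding gene Ncbp1 (1.51-fold) and Acin1 (1.38-fold). The lower gene, named after its value was seen, was Eif4a3, the helicase at the core of the exon junction complex (-0.22 ± 0.07, limma adjusted p = 0.041). Over the alternatives 4 to 5 genes were higher and 0 to 1 lower. None was lower with the replicate number as a block, with no intensity trend, with arrays centred on their medians, or without any 1 of caffeine+ arrays 1, 2 and 3 and caffeine- arrays 1 and 3.

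Of 15 genes for proteins that package snoRNAs, 5 were higher and 4 lower, with a median of -0.02. By smallest p, these were led by Nop56, a core protein of the box C/D particle (2.13-fold higher), the assembly factor Nufip1 (3.47-fold higher), Dkc1, the pseudouridine synthase of the box H/ACA particle (1.70-fold lower), and the assembly factor Ruvbl1 (1.72-fold higher). All 4 passed at limma adjusted p of 0.00015 or below. Calls of both directions fell in both kinds of particle. The only lower box C/D call (Fbl) and the only higher box H/ACA call (Naf1) lay near the threshold. The list had 5 higher and 3 lower with the replicate number as a block, and 4 and 3 with no intensity trend. After quantile normalization it had 6 higher and 5 lower. The other 5 called genes were named after their values were seen. Of box C/D core genes Nop58 was higher (0.77 ± 0.08) and Fbl, the methyltransferase, lower (-0.19 ± 0.06, limma adjusted p = 0.045). Of box H/ACA genes Nop10 (-0.68 ± 0.07) and Nhp2 (-0.83 ± 0.08) were lower, and the assembly factor Naf1 was higher (0.52 ± 0.16, limma adjusted p = 0.049). Snu13, Gar1 and Shq1 did not pass (0.17, -0.04 and -0.02), and a difference between the 2 kinds of particle was not tested.

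By the probe sets annotated to them, snoRNA genes as a class had 26 of 55 higher and 3 lower, with a median of 0.30. Protein-coding genes whose span holds a snoRNA gene, on either strand, had 99 of 324 higher and 50 lower, with a median of 0.04. The 4 with the smallest p were the ubiquitin ligase gene Cblb (2.94-fold), Smg1, Nop56 and the cell cycle gene Cks2 (2.26-fold), all higher. Among 9 measured long non-coding RNAs that do not host snoRNAs none was higher and 1, Tug1, was lower (-0.21 ± 0.05, limma adjusted p = 0.016). At an unadjusted p under 0.05 none was higher and 4 were lower. The count of lower genes was 0 without caffeine+ array 1 or 3 or caffeine- array 2 and with arrays centred on their medians. It was 3 without caffeine- array 3, with array weights, with filters on dim signal, and when only single-symbol or brightest probe sets entered the fit. Malat1, the abundant nuclear speckle RNA, differed by -0.11 ± 0.04 (limma adjusted p = 0.064).

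**Figure D4:**
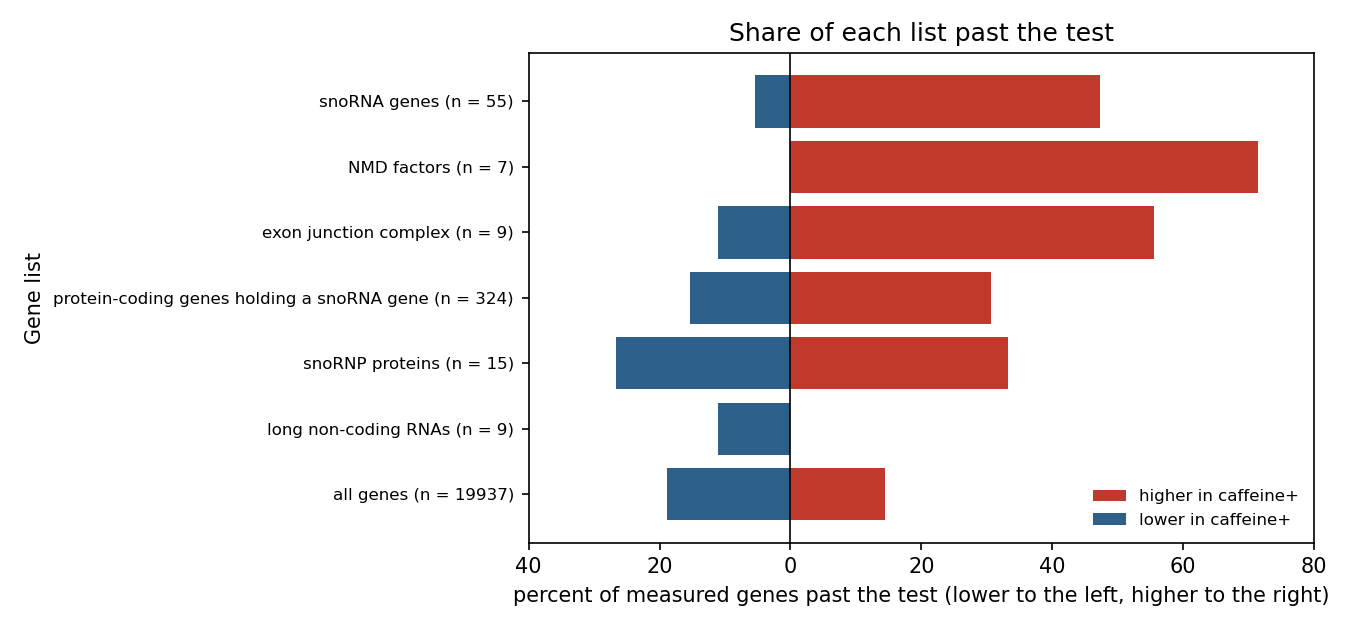
Percent of measured genes past the test (x axis) in each list, higher in caffeine+ cells to the right and lower to the left. SnoRNA genes (47.3% higher), NMD factors (71.4%) and the exon junction list (55.6%) reach further right than all genes (14.5%), and the long non-coding list has none to the right. Brightness differs between the lists and was not matched.

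The genes whose 6-array profile lay closest to each responding host, by the root mean square distance after centring each profile on its own mean, were Bard1, Usp24 and Arih2 for Snhg5 (distances 0.06, 0.07 and 0.08). For Snhg16 they were Mtbp, Msantd2 and Ythdc2 (each 0.11). For Gas5, at probe set 10351039, they were Prmt9, Rasgef1b and Msantd2 (0.15, 0.18 and 0.18). With 2 groups of 3 arrays this likeness is mostly a like difference between groups, since these genes rose 3.59-fold to 4.4-fold themselves.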

How the data were processed

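The authors deposited 1 log2 value per probe set and array. The unit was read from the values (1.90 to 13.98), since no header names it. The labels and headers do not name the method that summarized and normalized the probes. A change in total RNA per cell would not be seen in values normalized between arrays. The table gives no depth or detection call, and the number of arrays limits the precision. RNA labelling used 300 ng total RNA, per the labels' protocols.

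Gene names came from the array's annotation table (21640 with 1 symbol, 1321 with several, 11799 not listed), with symbols updated by gene identifier from the GRCm38.p6 gene table. All probe sets entered 1 fit in limma (version 3.58.1, R version 4.3.3; lmFit, eBayes with intensity trend, two-sided), and p-values were adjusted by Benjamini-Hochberg and called at 0.05. List genes stood at the probe set with the highest mean. Up to 4 genes per list, by smallest p, and the 3 nearest profiles per responding gene were named. The members and lists were chosen with earlier results of these data known. Replicate numbers 1 to 3 were not taken to pair arrays: deviations of same-numbered arrays correlated at -0.04, 0.10 and 0.21.

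On simulated data with 100 of 34760 probe sets changed by 0.5 and 100 by 1, the limma test recovered 13% of changes of 0.5 and 73% of changes of 1, and 1.15% of calls were false. With 1 probe set shifted by 2 in 50 of 954 genes, diffSplice recovered 100% but 15.3% of its calls were false, and limma on differences from companion probe sets recovered 100% with 1.89% false. Far fewer probe sets were changed here than the 10446 that passed in the data, and noise was drawn independently for each probe set. These rates therefore need not hold for the data.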

Additional observations from a re-analysis of the deposited data

How the results depend on the processing

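Over 16 alternatives (replicate block, quantile normalization, median centring, 2 filters on dim signal, 2 ways to choose features, 3 variance models and each of the 6 arrays left out), all 5 host gene probe sets that rose kept their direction and passed wherever they were tested, 5 of 12 with the replicate number as a block and 6 of 12 after quantile normalization, where Gas5 10351026 was added. With the brightest probe set per gene 2 of 6 genes rose, because Gas5 then stands at 10351026, and with probe sets averaged within each gene 3 of 6 rose, Gas5 by 2.38-fold. Leaving out 1 array gave 5 rises each time, 0 to 1 calls for the snoRNAs inside the hosts, 8526 to 10259 of all probe sets past the test against 10446, and a diffSplice adjusted p for unequal Gas5 responses of 7.9e-08 to 6.5e-05. That result gave exact p = 0.10 by permutation of per-array differences, the smallest that 3 against 3 arrays allow. Of 212 values under alternatives for the 12 host gene probe sets and the 2 probe sets of snoRNAs inside them, 208 stayed on the same side of the threshold, 3 lost their call (Snord47) and 1 gained it (Gas5 10351026). With arrays centred on their medians 5349 probe sets were higher and 4729 lower, against 4820 and 5626 before. Above the median level 10 of the 12 probe sets were left. Small differences at dim signal could not be resolved with 3 arrays a group.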
